A study of Mus musculus with 12 samples.

Results

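Whole lungs of Balb/c mice were compared at a pair of intranasal doses of house dust mite extract that lay 10-fold apart. The members were chosen by their titles alone, as the 3 mice labelled neutrophilic asthma and the 3 labelled mixed asthma, which together are 6 of the 12 samples of the series. Mixed mice received 0.75 DU of Der f and 0.75 DU of Der p, and neutrophilic mice received 7.5 DU of each, where DU are the development units in which the supplier expresses the extract. Both groups took the extract in PBS through the nose, 4 times at weekly intervals, without adjuvant and without an injection. The 3 control mice of the same strain received PBS alone by that route, and their values are given as levels. Each mouse gave 1 Affymetrix mouse Gene 1.0 ST array, so n = 3 mice in each group and the number of arrays limits the precision. The labels name the phenotypes but the sources used here give no age, sex or cell counts, and a whole lung mixes epithelium, vessels, stroma and infiltrating leukocytes. The question was which transcripts differed when only the dose of the extract changed.

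House dust mite extract carries proteases that open epithelial junctions, and microbial products and lipids that engage pattern recognition receptors on airway cells. Stressed epithelium releases IL-33, TSLP and IL-25, which drive the type 2 response of eosinophils, goblet cells and alternatively activated macrophages. Signals through IL-17, TNF and G-CSF instead raise CXCR2 ligands and neutrophils, and interferon-gamma raises CXCL9, CXCL10 and CXCL11 and the MHC class II genes. The mixed label joins both kinds of granulocyte and the neutrophilic label names the second kind only.

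The array of neutrophilic mouse 23 stood apart before any comparison was made. Its log2 values had an SD of 1.51 over all 34760 probe sets, against 1.77 to 2.04 on the other 8 intranasal arrays. Over the same probe sets its correlation with the other 5 arrays of the 2 dosed groups was 0.846 to 0.864. Those 5 correlated at 0.931 to 0.967 with each other. Counts, list medians and the genes called in either fit are therefore given with that mouse and without it. Lung markers were bright on all 9 arrays, where Sftpc, the surfactant protein of alveolar type 2 cells, read 13.37 to 14.21 log2 units and Scgb1a1, the club cell secretoglobin, 12.28 to 13.38. Neutrophil markers (19 measured) lay 1.48 to 2.04 log2 units above the control mean in mixed mice, and at 1.07, 2.10 and 2.43 in neutrophilic mice 23, 24 and 25. Eosinophil markers (10 measured) lay 0.84 to 1.01 above it in mixed mice and 0.57 to 1.09 above it in neutrophilic mice. By these markers the values of the 2 labels overlapped, and mouse 23 was the lowest of the 6 dosed mice for neutrophil markers. Markers of heart and skeletal muscle (16 genes) lay at -0.11, 0.76 and 0.31 in mixed mice 15, 16 and 17 and at 0.46, -0.31 and -0.24 in neutrophilic mice 23, 24 and 25, and those of adipose tissue (9 genes) at -0.37, 0.58 and 0.92 and at 0.16, -0.48 and -0.35. Adipose markers were highest in mixed mice 16 and 17, and muscle markers in mixed mouse 16 and neutrophilic mouse 23. The part of these tissues in the results was not tested.

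Few genes separated the doses when all 9 intranasal arrays were fitted together. Of 19937 genes, 11 passed an adjusted p of 0.05 (limma, Benjamini-Hochberg), which is 0.0552% of the genes tested: 2 were higher at the high dose (0.01%) and 9 were lower (0.0451%). All 11 shared the same adjusted p of 0.0464, so they lay together just under the threshold. Without mouse 23, 53 genes passed (0.266%), 22 of them higher (0.11%) and 31 lower (0.155%). All 11 genes were among these 53, in the same direction, and each of the 53 differed at least 2-fold. These counts depended on which arrays lent their spread to the test. With all 12 arrays of the series in the fit, as in an earlier analysis of these data, no gene passed (0 calls, and 618 genes at an unadjusted p under 0.05), and leaving out any single array other than that of mouse 23 gave 0 or 1 calls. Over all genes the median difference was 0.02 log2 units with mouse 23 and -0.01 without it. With mouse 23 the difference also leaned against the level of a gene, with a slope of -0.105 per log2 unit of the control mean, which was -0.0173 without that mouse.

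The 2 genes that rose with the dose in both fits encode short RNAs made by RNA polymerase III. n-R5s136, annotated as a 5S ribosomal RNA gene, had log2 levels of 9.02, 9.72 and 9.08 in mixed mice and 11.36, 11.39 and 10.76 in neutrophilic mice, above 8.09 to 8.70 in controls. The groups did not overlap, and the difference of 1.89 ± 0.28 (SE) is 3.71-fold (adjusted p 0.0464; 1.80 without mouse 23, adjusted p 0.0272). Rprl1, a gene of the RNase P RNA family, which trims transfer RNA precursors, read 6.60, 6.43 and 6.65 at the low dose and 8.16, 7.87 and 7.88 at the high dose. Its mixed values were close to the control values of 6.26 to 6.64, and its difference was 1.41 ± 0.22 (adjusted p 0.0464; 1.32 without mouse 23, adjusted p 0.0338). Both RNAs have near-identical copies in the genome, so the copy that gave the signal is uncertain.

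The 9 genes that fell in both fits have varied functions, and each had its 3 neutrophilic values below its 3 mixed values. Ogn encodes osteoglycin, a small leucine-rich proteoglycan of connective tissue. It read 9.04, 8.75 and 9.43 at the low dose and 7.13, 6.81 and 7.84 at the high dose, with controls at 9.69 to 9.90, a fall of 1.82 ± 0.28 (SE) or 3.52-fold (adjusted p 0.0464; without mouse 23, adjusted p 0.0342). Lztfl1, a regulator of protein traffic into cilia, read 6.91, 6.53 and 6.95 against 4.65, 5.02 and 5.33, while controls lay at 6.78 to 7.22. It fell 3.48-fold with the higher dose (3.08-fold without mouse 23).

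Some of these genes had mixed values below all control values, and others did not. Nbeal1, a BEACH-domain protein gene, read 8.95 to 9.15 in controls, 8.12, 7.67 and 7.64 in mixed mice and 5.97, 6.19 and 6.33 in neutrophilic mice. Its 3 groups did not overlap in that order, and it fell 3.14-fold between the doses (2.94-fold without mouse 23). Mpp5, also known as Pals1, a scaffold of the polarity complex at tight junctions, had the same order without overlap, with 7.78 to 7.94 in controls, 7.29, 7.06 and 7.13 at the low dose and 5.997, 5.74 and 5.81 at the high dose. Its difference between doses was -1.31 ± 0.20 (adjusted p 0.0464; -1.39 without mouse 23, adjusted p 0.0187). Ggps1, which makes the geranylgeranyl lipid that anchors small GTPases, read 6.72, 6.89 and 6.41 at the low dose, close to its controls of 6.44 to 7.01, and 5.15, 5.19 and 4.57 at the high dose, a fall of 3.26-fold (3.47-fold without mouse 23). Luc7l3, a splicing factor gene, fell 2.73-fold (2.63-fold without mouse 23), from 7.49, 8.01 and 7.69 to 6.17, 6.45 and 6.21. Lysmd3, a gene of a LysM-domain membrane protein, fell 2.65-fold (2.49-fold without mouse 23). 2610002M06Rik fell 2.94-fold (3.28-fold without mouse 23), and it is named here outside the rule for named genes.

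**Figure D1:**
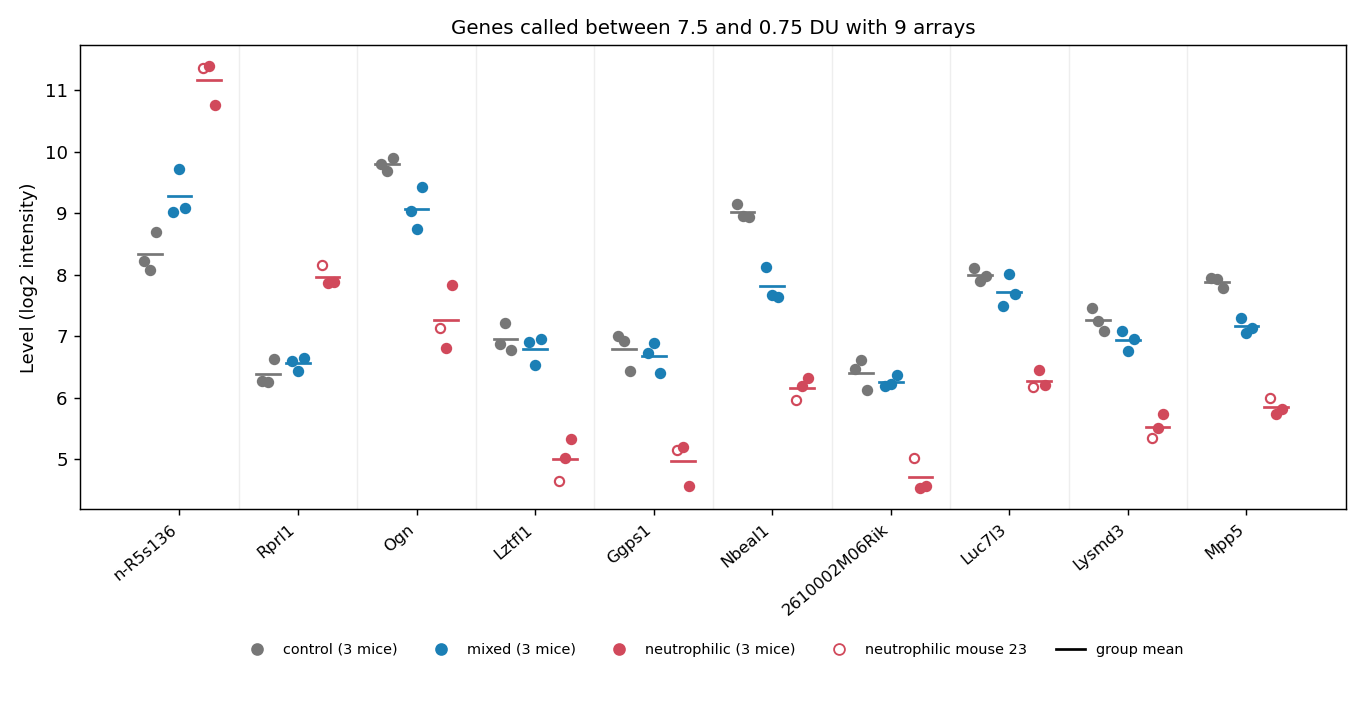
Log2 level (vertical axis) of 10 of the 11 genes called in the 9-array fit, 1 point per mouse, with a bar at each group mean; control in grey, mixed (0.75 DU) in blue, neutrophilic (7.5 DU) in red, and mouse 23 as an open circle. For these 10 genes the 3 neutrophilic points lie beyond the 3 mixed points, with mouse 23 on the same side as mice 24 and 25.

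Further small RNAs were high at the high dose. A list of 73 small structural RNAs (5S, RNase P, Y, vault, small nucleolar and Cajal body RNAs) was assembled after the values had been seen, so its counts are a description. Of the 73, 67 were higher in neutrophilic than in mixed mice (69 without mouse 23), where 51.9% of all genes were with mouse 23 and 48.54% without it, and 38 had all 3 neutrophilic values above all 3 mixed values, where 4.67% of all genes did. The median difference was 0.70 log2 units, and 0.80 without mouse 23, with 2 genes called in the first fit and 7 in the second, where 0.01% and 0.11% of all genes were called higher. Snora3, a guide RNA for pseudouridine in ribosomal RNA, read 11.39, 10.81 and 10.95 at the low dose and 12.35, 13.20 and 13.09 at the high dose, and it passed the test without mouse 23 (2.10 ± 0.29, adjusted p 0.0174; 0.0700 with it). Rny1, a Y RNA bound by the Ro protein, read 7.21, 7.37 and 6.79 against 9.31, 8.83 and 8.60. Vaultrc5, a vault RNA gene, read 8.38, 8.93 and 8.76 against 10.23, 10.06 and 10.21, where controls lay at 7.61 to 8.28. The difference without mouse 23 was 1.59 for Rny1 (adjusted p 0.0482) and 1.45 for Vaultrc5 (adjusted p 0.0428), and neither passed with it (1.79 and 1.48, adjusted p 0.0700 and 0.0693). Rprl2 did not pass in either fit (1.23, and 1.22 without mouse 23).

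The list mean of the small RNAs lay 0.27 to 0.50 log2 units above the control mean in mixed mice and 0.97 to 1.29 above it in neutrophilic mice. Mouse 23 (0.97) was close to mouse 24 (1.03). Control mice 1, 2 and 3 lay at 0.26, -0.32 and 0.06, so the highest control was close to the lowest mixed mouse. A second list of 22 replication-dependent histone genes was assembled in the same way, so its counts are a description too. Of these, 18 were higher in neutrophilic mice (20 without mouse 23), where 51.9% of all genes were (48.54% without it). In 11 the groups did not overlap in that direction, where 4.67% of all genes did so. The list median was 0.63 (0.50 without mouse 23). H2bc3, a histone H2B gene, read 5.36, 5.77 and 6.17 against 6.39, 7.87 and 7.17 and was called without mouse 23 (1.75, adjusted p 0.0272; 0.144 with it). H2bc14 and H4c6 differed by 1.36 and 1.32 (1.46 and 1.05 without mouse 23), which did not pass. Their transcripts lack poly(A) tails and their copies are close in sequence. Of 30 cell cycle genes, 0 were called by limma in either fit (2 higher and 1 lower at an unadjusted p under 0.05 in each), with a median of 0.05 (0.14 without mouse 23). At that threshold 2.31% of all genes were higher and 8.27% lower with mouse 23, and 4.32% higher and 6.73% lower without it. No measure of RNA quality was used here, and its part in these differences was not tested.

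The remaining 42 calls appeared only when mouse 23 was left out, and among them were Csf3, Tnf, Nos2, Cxcl11 and Batf2, genes of the inflammatory and interferon response. Csf3 encodes G-CSF, the growth factor that calls neutrophils out of the bone marrow. It read 4.44 to 4.56 in controls, 5.36, 4.83 and 5.88 in mixed mice, and 4.48, 7.06 and 7.40 in neutrophilic mice 23, 24 and 25. Mouse 23 was thus at the control level while the other two were the highest of all, so the difference was 0.95 ± 0.58 with mouse 23 (adjusted p 0.623) and 1.87 ± 0.28 without it, or 3.66-fold (adjusted p 0.0174). Tnf, the gene of the proinflammatory cytokine TNF, had the same order, with 6.44, 5.45 and 5.91 at the low dose and 5.43, 7.39 and 7.76 at the high dose. It rose 3.12-fold without mouse 23 (adjusted p 0.0428; 0.559 with it). Nos2, the inducible nitric oxide synthase of activated macrophages and epithelium, read 5.54 to 5.78 in controls, 5.33, 4.95 and 5.79 in mixed mice and 5.43 in mouse 23, against 7.19 and 6.63 in mice 24 and 25 (2.94-fold, adjusted p 0.0394; 0.315 with mouse 23).

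Interferon-linked genes split the neutrophilic group in the same way. Cxcl11, a ligand of the T cell receptor CXCR3, read 6.65, 6.31 and 7.44 in mixed mice and 5.68, 8.55 and 8.13 in neutrophilic mice, above 4.93 to 4.98 in controls. It rose 2.91-fold without mouse 23 (adjusted p 0.0467; 0.727 with it). Batf2, a transcription factor gene induced by interferon-gamma in macrophages, read 6.07, 5.02 and 5.67 against 5.83, 6.99 and 7.44 (3.10-fold without mouse 23, adjusted p 0.0415; 0.259 with it). Cxcl10 missed the threshold in both fits, with differences of 0.46 (adjusted p 0.834) and 1.48 (adjusted p 0.0544). It read 9.36 to 10.43 in mixed mice and 8.47, 11.40 and 11.68 in neutrophilic mice. Cxcl9 read 7.73 to 9.60 against 5.67, 10.77 and 10.02, and its difference without mouse 23 was 1.87 ± 0.42 (adjusted p 0.0963). Of the 26 measured members of the interferon-stimulated list, 1 was called by limma without mouse 23, where 0.11% of all genes were called higher, and 0 with it. At an unadjusted p under 0.05, 2 were lower with mouse 23, and 7 were higher and 1 lower without it, and the list median was 0.01, or 0.23 without mouse 23. Of all genes at that threshold, 8.27% were lower with mouse 23, and 4.32% were higher and 6.73% lower without it. Calhm6, an interferon-induced membrane protein gene outside that list, read 5.28, 5.27 and 5.41 against 4.77, 6.42 and 6.34 and was called without mouse 23 at 1.06 (adjusted p 0.0482; 0.669 with it).

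Hamp, Ftl1, Dnase1l3, Gp2 and Zfand1 were also called higher without mouse 23, and no list was fixed for what they do. Hamp encodes hepcidin, the hormone that blocks cellular iron export. It read 3.57 to 5.24 in controls, 6.89, 5.68 and 7.35 at the low dose and 6.50, 8.71 and 9.87 at the high dose, a difference of 2.65 ± 0.51 without mouse 23 (adjusted p 0.0482) and 1.72 ± 0.71 with it (adjusted p 0.404). Ftl1, the ferritin light chain that stores iron, read 7.16, 6.14 and 5.68 against 7.27, 8.31 and 8.39, and differed by 2.02 without mouse 23 (adjusted p 0.0428; 0.144 with it). Ferritin light chain has near-identical copies, so the source of that signal is uncertain. Dnase1l3, a nuclease of dendritic cells and macrophages that digests extracellular chromatin, differed 3.07-fold without mouse 23 (adjusted p 0.0271; 2.08-fold with it, not called), and Gp2, a receptor for bacteria on M cells, 3.74-fold (adjusted p 0.0415; 0.489 with it). Zfand1, a stress granule protein gene, had the widest difference with mouse 23 of the genes named here, reading 4.07, 3.52 and 3.82 in mixed mice and 9.30, 6.56 and 6.22 in neutrophilic mice. Its controls ranged from 3.17 to 5.47, and it passed only without mouse 23 (2.59, adjusted p 0.0499; 0.108 with it).

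MHC class II genes present peptides to CD4 T cells. Of 10 measured members, 0 were called with mouse 23 and 1 without it (0.11% of all genes were called higher), and 7 had both of mice 24 and 25 above the 3 mixed mice, where 10.2% of all genes did. The list median was 0.26, and 0.69 without mouse 23. H2-DMa, which loads peptides onto class II, read 7.51, 6.67 and 7.23 in mixed mice and 6.70, 8.51 and 8.55 in neutrophilic mice, and it rose 2.62-fold without mouse 23 (adjusted p 0.0438; 0.563 with it). H2-Ab1, the class II beta chain, read 9.06 to 10.22 against 9.42, 10.99 and 10.68, which did not pass (1.12 without mouse 23, adjusted p 0.140). Cd74, the invariant chain, differed by 0.86 without mouse 23 (adjusted p 0.252). In whole lung, more cells that carry class II and more class II RNA in each cell cannot be told apart, and this holds for every list here.

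Antibody genes varied between mice at both doses. The list mean of 16 B and plasma cell genes lay at 0.78, 0.44 and 1.38 above the control mean in mixed mice 15, 16 and 17 and at 0.10, 1.89 and 1.51 in neutrophilic mice 23, 24 and 25. With limma 0 members were called with or without mouse 23 (0 and 8 higher at an unadjusted p under 0.05, where 2.31% and 4.32% of all genes were). The list median was 0.13, or 0.73 without mouse 23. Igha, the IgA heavy chain, read 6.59, 6.99 and 11.13 in mixed mice and 7.20, 10.83 and 11.67 in neutrophilic mice, so that mixed mouse 17 read as high as mice 24 and 25. Mzb1, a chaperone of antibody secretion, likewise read 7.83 in mixed mouse 17 and 8.33 and 7.81 in neutrophilic mice 24 and 25. Igkv5-43, a kappa light chain variable segment, was called without mouse 23 at 3.01 ± 0.41 (adjusted p 0.0174; 0.321 with it), from 3.54, 5.15 and 3.86 to 4.05, 7.75 and 6.63. Variable segments cross-hybridise, so its identity is uncertain.

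**Figure D2:**
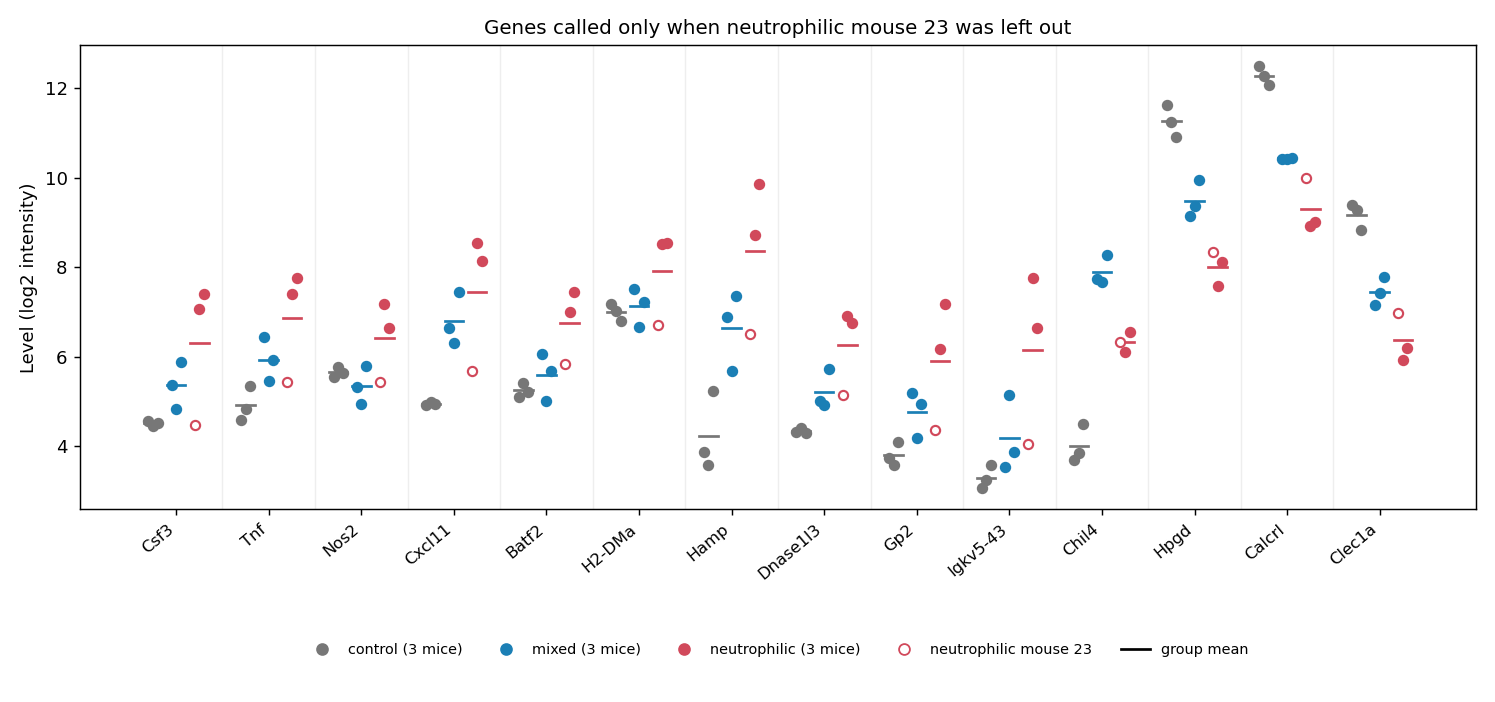
Log2 level (vertical axis) of 14 genes that were called only without mouse 23, 1 point per mouse, with a bar at each group mean over 3 mice. For Csf3, Tnf, Nos2, Cxcl11, H2-DMa and Gp2 the open circle of mouse 23 lies among or below the mixed mice, while for Chil4, Hpgd and Clec1a it lies below them with mice 24 and 25.

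Sequence upstream of the called genes was searched for short motif shapes. The window was 250 bases upstream of the transcription start in RefSeq (GRCm38.p6), which had an entry for 8 of the 22 genes called higher and 26 of the 31 called lower, counting the calls without mouse 23. The 8 shapes, searched on both strands and allowed to overlap, were settled on after a look at a smaller group of promoters, Cxcl10 among them, so no test is given. An interferon response shape (GAAA, 2 bases of any kind, GAAA) occurred in 1 of 9 windows of the higher genes (Calhm6) and 1 of 27 of the lower genes (Ggps1), against 2.98% of all 32851 windows. A STAT dimer shape (TTCNNNGAA) occurred in 1 and 3 windows, against 7.02%, and its longer-spaced form (TTC and GAA 4 bases apart) in 1 and 1, against 5.85%. The AP-1 shape (TGANTCA) occurred in 2 windows of higher genes, H2-DMa and Hamp, and in 0 of lower genes, against 6.75%. A loose kB shape (GGG and TCC 4 bases apart) occurred in 0 windows of higher and 6 of lower genes, against 16.5%. A stricter kB shape (GGG and TTTCC 2 bases apart; 1.41% of all windows) and a heat shock shape (GAA, TTC and GAA with 2 bases between each; 0.466%) occurred in none of these windows, and a CRE shape (TGACGTCA; 1.55%) in 1 window, that of Cdc5l. Shown are the upstream windows of the called genes with the largest rise and the largest fall without mouse 23 among those with a single entry, Hamp (chr7:30944030-30944279, minus strand) and Ggps1 (chr13:14063489-14063738, minus strand), written 5′ to 3′ along the gene with every match in capitals.
Hamp: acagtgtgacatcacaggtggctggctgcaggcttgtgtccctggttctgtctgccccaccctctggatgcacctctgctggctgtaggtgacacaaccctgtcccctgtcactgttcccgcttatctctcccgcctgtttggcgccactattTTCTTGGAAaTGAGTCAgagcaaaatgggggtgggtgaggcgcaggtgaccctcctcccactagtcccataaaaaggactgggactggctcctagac
Ggps1: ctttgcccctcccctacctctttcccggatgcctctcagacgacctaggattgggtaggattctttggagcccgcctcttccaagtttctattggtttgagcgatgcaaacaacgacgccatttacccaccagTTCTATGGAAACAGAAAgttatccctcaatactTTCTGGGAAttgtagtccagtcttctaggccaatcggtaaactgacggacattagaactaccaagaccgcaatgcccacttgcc
In Hamp the capitals are the STAT dimer shape 97 to 89 bases before the start and the AP-1 shape 87 to 81 bases before it. In Ggps1 they are the longer-spaced STAT shape 117 to 108 bases before the start, overlapped by the interferon response shape 110 to 101 bases before it, and a STAT dimer shape 84 to 76 bases before it.

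Neutrophil genes themselves did not pass between the doses. Of 19 measured members, 0 were called by limma with mouse 23 and 0 without it (0 and 7 higher at an unadjusted p under 0.05, where 2.31% of all genes were higher with mouse 23 and 4.32% without it), and the list median was 0.06, or 0.53 without mouse 23. S100a9, a subunit of calprotectin, read 8.84, 8.69 and 9.21 in mixed mice and 8.83, 10.08 and 10.14 in neutrophilic mice, against 5.59 to 7.50 in controls (1.1997 without mouse 23, adjusted p 0.256). Its partner S100a8 differed by 0.79 without mouse 23 (adjusted p 0.440). Ngp, a granule protein of immature neutrophils, read 5.69, 4.96 and 7.37 against 4.48, 7.85 and 8.69 and had the nearest approach to the threshold of these genes (2.26 without mouse 23, adjusted p 0.0861). Ly6g, the surface antigen that defines mouse neutrophils, read 7.81, 7.25 and 8.29 in mixed mice and 5.96, 8.38 and 8.73 in neutrophilic mice, with a difference of -0.09 that was 0.77 without mouse 23 (adjusted p 0.291). Il1r2, the decoy IL-1 receptor of neutrophils, differed by 0.29, and by 1.08 without mouse 23 (adjusted p 0.317). Lcn2 and Retnlg, with the smallest p of the list with mouse 23, went the other way in both fits. Lcn2 differed by -0.61 (adjusted p 0.534) and Retnlg by -0.42 (adjusted p 0.591), and by -0.25 and -0.26 without mouse 23. Of the 19 genes, 11 had a positive difference with mouse 23 and 15 without it, where 51.9% and 48.54% of all genes did. In 7 of the 19 genes mice 24 and 25 both lay above the mixed mice, where 10.2% of all genes did. In 0 of 19 did all 3 neutrophilic mice, where 4.67% of all genes did.

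Among 17 neutrophil chemoattractants and genes of the IL-17 axis, Csf3 alone was called by limma, without mouse 23 (0.11% of all genes were called higher). At an unadjusted p under 0.05, 0 were higher and 1 lower with mouse 23, and 4 higher and 0 lower without it. Of all genes, 2.31% were higher and 8.27% lower with mouse 23, and 4.32% higher and 6.73% lower without it. The list median was -0.07, or 0.24 without mouse 23. Cxcl15 had the smallest p with mouse 23 and did not pass. It read 12.44, 12.17 and 12.31 in mixed mice and 11.07, 12.02 and 11.81 in neutrophilic mice (-0.68, adjusted p 0.353, and -0.40 without mouse 23). Cxcl1 read 8.96, 8.82 and 8.74 at the low dose and 8.34, 9.37 and 9.48 at the high dose, with controls at 5.23 to 5.66. Cxcl2 read 10.21, 8.98 and 10.49 against 6.70, 9.74 and 10.34, and Cxcl5 read 8.63, 9.15 and 8.86 against 7.86, 9.14 and 9.22. Without mouse 23 the 95% interval of the difference was 0.11 to 1.05 for Cxcl1 (adjusted p 0.319), -0.62 to 0.92 for Cxcl2 and -0.24 to 0.83 for Cxcl5. Il17a, the cytokine of Th17 cells, read 5.07, 5.10 and 5.48 against 5.56, 6.50 and 5.45 (0.62, limma adjusted p 0.528, and 0.76 without mouse 23, adjusted p 0.371). Of 16 monocyte and inflammatory macrophage genes, Nos2 and Tnf were called without mouse 23 and 0 with it, where 0.11% and 0.01% of all genes were called higher, and their median of 0.86 without mouse 23 was the highest of the cell type lists (0.29 with it).

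Chil4 fell with the dose without mouse 23, while the other 10 alternatively activated macrophage genes did not pass. It encodes a chitinase-like lectin, also known as Ym2, secreted in type 2 inflammation. It read 3.70 to 4.50 in controls, 7.74, 7.66 and 8.28 at the low dose and 6.33, 6.11 and 6.56 at the high dose, and mouse 23 sat with its group. The difference was -1.56 ± 0.28 without mouse 23 (adjusted p 0.0428) and -1.56 ± 0.27 with it (adjusted p 0.0700). Chil4 has a near-identical neighbour in Chil3, so its signal is uncertain. Retnla, the type 2 effector RELM-alpha, read 12.69, 12.79 and 12.81 at the low dose and 12.50, 12.06 and 12.03 at the high dose, which did not overlap but did not pass (-0.57, adjusted p 0.489). Arg1, arginase of alternatively activated macrophages, read 7.19 to 7.64 against 7.23 to 7.80 (0.11, adjusted p 0.894). Of the 11 members, 1 was called lower without mouse 23 (0.155% of all genes) and 0 with it (0.0451%). The list median was -0.39, and -0.09 without mouse 23.

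No type 2 or eosinophil gene on the fixed lists passed between the doses in either fit. Of 18 type 2 cytokine and chemokine genes, 0 were called by limma in either fit (3 lower at an unadjusted p under 0.05, and 4 without mouse 23, against 8.27% and 6.73% of all genes) and 5 had a positive difference (6 without mouse 23), where 51.9% of all genes did (48.54% without it), with a median of -0.28 (-0.10 without mouse 23). Il33, the epithelial alarmin, read 11.40, 10.85 and 10.54 at the low dose and 9.90, 9.87 and 10.17 at the high dose, above 7.31 to 8.31 in controls. Its difference was -0.95 ± 0.30 (adjusted p 0.254; 0.262 without mouse 23). Il5, which sustains eosinophils, read 4.83, 5.42 and 4.50 against 5.28, 3.84 and 3.94 (-1.03 without mouse 23, adjusted p 0.130). The eosinophil attractant Ccl11 read 9.67 to 9.82 against 8.93, 9.66 and 9.61, Ccl24 differed by -0.61 (adjusted p 0.433; -0.73 without mouse 23), and Ccl17, a ligand for Th2 cells, by -0.38 (adjusted p 0.691; -0.25 without mouse 23).

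Of 10 eosinophil genes, 0 were called by limma in either fit. At an unadjusted p under 0.05, 2 were lower in each, where 8.27% of all genes were with mouse 23 and 6.73% without it. All 3 neutrophilic values lay below the mixed ones in 2 genes, where 9.37% of all genes had this. The list had 6 of 10 differences positive and a median of 0.11, and 3 of 10 and a median of -0.09 without mouse 23. Rnase2a, an eosinophil-associated ribonuclease, read 9.20, 9.93 and 9.99 at the low dose and 8.94, 8.63 and 7.69 at the high dose, against 3.42 to 4.51 in controls (-1.28, adjusted p 0.204; -1.54 without mouse 23, adjusted p 0.107). Its family holds near-identical copies, so the copy is uncertain. Alox15, a lipoxygenase of eosinophils and macrophages, read 7.33, 7.31 and 7.07 against 6.11, 6.80 and 6.07 (-0.91, adjusted p 0.233; -0.80 without mouse 23). Epx, eosinophil peroxidase, differed the other way by 0.53 (adjusted p 0.510; 0.45 without mouse 23) and lay between 3.86 and 4.94 on all 9 arrays.

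Clca1, Muc5ac and Muc5b lay above their control values in all 6 dosed mice, and with mouse 23 their values at the 2 doses overlapped. Clca1, a goblet cell product, read 12.004, 11.73 and 11.55 in mixed mice and 11.62, 11.20 and 11.13 in neutrophilic mice, against 4.27 to 4.55 in controls (-0.44, limma adjusted p 0.544). Mice 24 and 25 both lay below all mixed mice for Clca1, and without mouse 23 it differed by -0.59 (limma adjusted p 0.308). Muc5ac, the inducible gel-forming mucin, read 7.39 to 7.67 against 7.37 to 7.53, a difference of -0.05 ± 0.23 with a 95% interval of -0.56 to 0.45, and Muc5b read 8.54 to 9.52 against 8.62 to 9.27. Muc4, a membrane-bound mucin, differed by -0.56 (adjusted p 0.421; -0.45 without mouse 23). Bpifa1, an antimicrobial protein of upper airways, read 9.56, 11.33 and 9.09 against 8.91, 6.65 and 9.37, with controls at 9.94 to 10.99, so that all 3 neutrophilic mice lay below the controls and mouse 24 lowest (-1.69, adjusted p 0.368; -1.99 without mouse 23). Of 18 goblet cell genes and 7 membrane-bound mucins, 0 were called by limma in either fit (at an unadjusted p under 0.05, 1 higher and 2 lower of the first list and 1 lower of the second with mouse 23, and 1 higher, 3 lower and 0 without it). At that threshold 2.31% of all genes were higher and 8.27% lower with mouse 23, and 4.32% higher and 6.73% lower without it.

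Of the 30 tight junction genes measured, Mpp5 was the 1 called, lower in both fits (background 0.0451% with mouse 23 and 0.155% without it). Tjp1, the scaffold ZO-1, read 9.46, 8.98 and 9.03 at the low dose and 7.54, 8.53 and 8.66 at the high dose, below 9.94 to 10.45 in controls. Its groups did not overlap and it did not pass (-0.92, adjusted p 0.274; -0.56 without mouse 23, adjusted p 0.385). Ocln, occludin, read 7.55, 7.14 and 6.90 against 6.62, 6.68 and 6.75 (-0.52, adjusted p 0.445; -0.49 without mouse 23). Cldn4, a claudin of injured epithelium, differed the other way, with 8.27, 8.02 and 7.42 against 7.41, 8.36 and 9.51 and 6.01 to 6.16 in controls (0.52, adjusted p 0.704; 1.03 without mouse 23, adjusted p 0.209). Nectin3, of the adherens junction list, differed by -0.70 (adjusted p 0.280; -0.66 without mouse 23), and 0 of 18 genes of that list were called by limma in either fit (at an unadjusted p under 0.05, 2 lower with mouse 23, and 2 higher and 2 lower without it). At that threshold 8.27% of all genes were lower with mouse 23, and 4.32% were higher and 6.73% lower without it. The tight junction list had a median of -0.18, with 6 of 30 differences positive, and -0.04 with 13 positive without mouse 23, where 51.9% and 48.54% of all genes were positive.

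Inflammasome and IL-1 family genes gave 0 limma calls of 28 in either fit (1 lower at an unadjusted p under 0.05, and 3 higher and 1 lower without mouse 23), with a median of 0.02 (0.13 without mouse 23). At that threshold 2.31% of all genes were higher and 8.27% lower with mouse 23, and 4.32% higher and 6.73% lower without it. Nlrp3, the inflammasome sensor, read 6.63, 4.90 and 5.59 in mixed mice and 4.88, 6.50 and 7.22 in neutrophilic mice (1.15 without mouse 23, adjusted p 0.255). Il1b read 10.89, 9.92 and 10.07 against 9.12, 10.47 and 10.86, and Casp1, which cleaves its product, read 5.14 to 5.46 against 5.18 to 5.51. Il18r1, the IL-18 receptor, read 8.85, 8.33 and 8.12 against 7.25, 7.66 and 7.73, which did not overlap and did not pass (-0.88, adjusted p 0.195; -0.74 without mouse 23). In the acute phase list, 0 of 19 were called by limma in either fit (3 lower at an unadjusted p under 0.05, and 1 higher and 3 lower without mouse 23), and Saa2, a serum amyloid A gene with close paralogs, differed by -1.42 (adjusted p 0.178; -1.49 without mouse 23) while Saa3 differed by -0.36 (adjusted p 0.705; -0.27 without mouse 23). Tlr4, the lipopolysaccharide receptor, read 7.43, 6.88 and 7.04 against 6.01, 6.44 and 6.35 (-0.85, adjusted p 0.181; -0.72 without mouse 23). Cd209a, a C-type lectin of dendritic cells, differed by -1.10 (adjusted p 0.214; -0.86 without mouse 23), and Sod2, the mitochondrial superoxide dismutase, by -0.94 (adjusted p 0.196; -0.64 without mouse 23).

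Resident lung cell genes lay lower at the high dose in several lists, with 0 limma calls in each in either fit. At an unadjusted p under 0.05 with mouse 23, 3 alveolar type 1, 6 club, 5 ciliated, 5 smooth muscle, 4 blood endothelial and 2 fibroblast genes were lower and 1 blood endothelial gene was higher, where 8.27% of all genes were lower and 2.31% higher. Without mouse 23 those lower were 3 alveolar type 1, 5 club, 5 ciliated, 2 smooth muscle, 3 blood endothelial and 3 fibroblast genes, where 6.73% of all genes were, and 0 genes of these lists were higher. Other resident lists did not share this. The 15 alveolar type 2 cell genes had a median of -0.12 (0.13 without mouse 23), with 6 positive differences (10 without it). At an unadjusted p under 0.05, 3 of them were lower with mouse 23, and 2 higher and 1 lower without it. The 15 basal and squamous genes had a median of 0.175 (0.04 without mouse 23), with 10 positive differences (9 without it). Of 12 alveolar type 1 cell genes, 6 had all 3 neutrophilic values below the mixed values, where 9.37% of all genes did, and the median was -0.39 (-0.40 without mouse 23). Akap5, an anchoring protein for kinase A, read 10.18 to 10.81 in controls, 9.04, 8.86 and 9.03 at the low dose and 7.91, 7.62 and 8.09 at the high dose (-1.10, adjusted p 0.118; 0.0963 without mouse 23). Hopx, a type 1 cell homeodomain gene, differed by -0.74 (adjusted p 0.254; -0.65 without mouse 23). Of 14 club cell genes, 6 lay apart below and 1 apart above, with a median of -0.48 (-0.43 without mouse 23). The 1 above was Scgb1a1, which read 13.01, 12.73 and 12.86 at the low dose and 13.25, 13.38 and 13.28 at the high dose. It differed by 0.43 (adjusted p 0.551), and by 0.46 without mouse 23. The detoxifying enzyme Gsta3 read 7.92, 7.94 and 8.12 against 7.15, 6.83 and 7.29 (-0.90, adjusted p 0.143; -0.93 without mouse 23), and Aldh1a1, a retinal dehydrogenase, differed by -0.80 (adjusted p 0.196; -0.85 without mouse 23).

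Ciliated cell genes had a median of -0.26 (-0.34 without mouse 23). Of 20, 6 lay apart below and 1 apart above, where 9.37% and 4.67% of all genes did. Sntn, sentan of the ciliary tip, read 6.45, 6.62 and 5.995 against 5.13, 5.43 and 5.26 (-1.08, adjusted p 0.112; -1.01 without mouse 23), and Dnah9, a ciliary dynein, differed by -0.68 (adjusted p 0.260; -0.69 without mouse 23). Smooth muscle genes had a median of -0.53 (-0.25 without mouse 23). Their member Pln, phospholamban, which heart also expresses, read 5.07, 6.54 and 5.77 in mixed mice and 4.91, 3.90 and 3.97 in neutrophilic mice (-1.53, adjusted p 0.194; -1.86 without mouse 23). The heart transcript Nppa was high in mixed mice 16 and 17 and in neutrophilic mouse 23, and the adipose transcript Fabp4 in mixed mice 16 and 17. Nppa, the atrial natriuretic peptide, read 5.94, 10.005 and 8.55 in mixed mice and 8.31, 5.30 and 5.48 in neutrophilic mice, and Fabp4, an adipocyte and macrophage lipid carrier, read 6.30, 8.47 and 8.94 against 6.40, 6.19 and 5.70. Neither passed with mouse 23 (adjusted p 0.539 and 0.2002) or without it (0.166 and 0.155), and the part of such tissue was not tested.

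Calcrl, Clec1a, Hpgd and Npr3 were called lower without mouse 23, and none of them is on the endothelial, fibroblast or smooth muscle lists. Calcrl, the receptor of adrenomedullin on endothelium, read 12.07 to 12.49 in controls, 10.43, 10.42 and 10.44 at the low dose and 9.98, 8.92 and 9.003 at the high dose, a difference of -1.47 ± 0.21 without mouse 23 (adjusted p 0.0174) and -1.13 ± 0.28 with it (adjusted p 0.145). Clec1a, an endothelial C-type lectin, read 7.15, 7.41 and 7.78 against 6.97, 5.94 and 6.20 (-1.38 without mouse 23, adjusted p 0.0438; 0.185 with it). Hpgd, which breaks down prostaglandin E2, read 10.92 to 11.63 in controls, 9.14, 9.38 and 9.95 at the low dose and 8.33, 7.57 and 8.12 at the high dose, and it fell 3.12-fold without mouse 23 (adjusted p 0.0420; 0.0991 with it). Npr3, the natriuretic peptide clearance receptor, read 9.33, 8.35 and 8.59 against 7.46, 7.16 and 7.43 (-1.46 without mouse 23, adjusted p 0.0472; 0.0952 with it). Its mixed mice were not below its controls of 8.46 to 8.79 as a group.

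Of 22 blood endothelial genes on the fixed list, 0 were called in either fit, and the median was -0.30 (-0.26 without mouse 23). Tek, the angiopoietin receptor, read 9.59, 9.36 and 9.54 against 8.39, 8.69 and 8.85 (-0.86, adjusted p 0.175; -0.73 without mouse 23). Fibroblast genes had a median of -0.40 (-0.20 without mouse 23) and 0 calls of 15. Lrat, which stores retinol as esters in lipofibroblasts, read 9.47 to 9.89 in controls, 7.57, 7.27 and 6.20 at the low dose and 5.70, 5.88 and 5.84 at the high dose (-1.21, adjusted p 0.162; -1.15 without mouse 23), and Dcn, decorin, differed by -1.01 (adjusted p 0.126; -0.83 without mouse 23).

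Dnajb9, Dnajb4, Cdc5l and Srsf10 were also called lower without mouse 23, and no list was fixed for what they do. Dnajb9, a co-chaperone of the endoplasmic reticulum, read 9.24, 8.99 and 8.72 at the low dose and 6.52, 7.46 and 7.56 at the high dose (-1.48, adjusted p 0.0338 without mouse 23; 0.0667 with it). Its controls, at 8.15 to 8.75, overlapped the low dose and lay above the high dose. Dnajb4, of the same family, read 8.99, 8.72 and 9.35 against 7.36, 7.48 and 7.59 (-1.49, adjusted p 0.0394 without mouse 23; 0.0542 with it). Cdc5l, a core splicing factor gene, read 7.96, 8.18 and 7.81 against 5.03, 5.93 and 6.50, and fell 3.42-fold without mouse 23 (adjusted p 0.0428; 0.0700 with it). Srsf10, a splicing regulator gene, read 9.32 to 9.42 against 7.38, 8.17 and 8.41 (-1.08 without mouse 23, adjusted p 0.0482; 0.0952 with it). In these 4 genes mouse 23 lay below all mixed mice too, and the lowest value was that of mouse 23 in each.

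**Figure D3:**
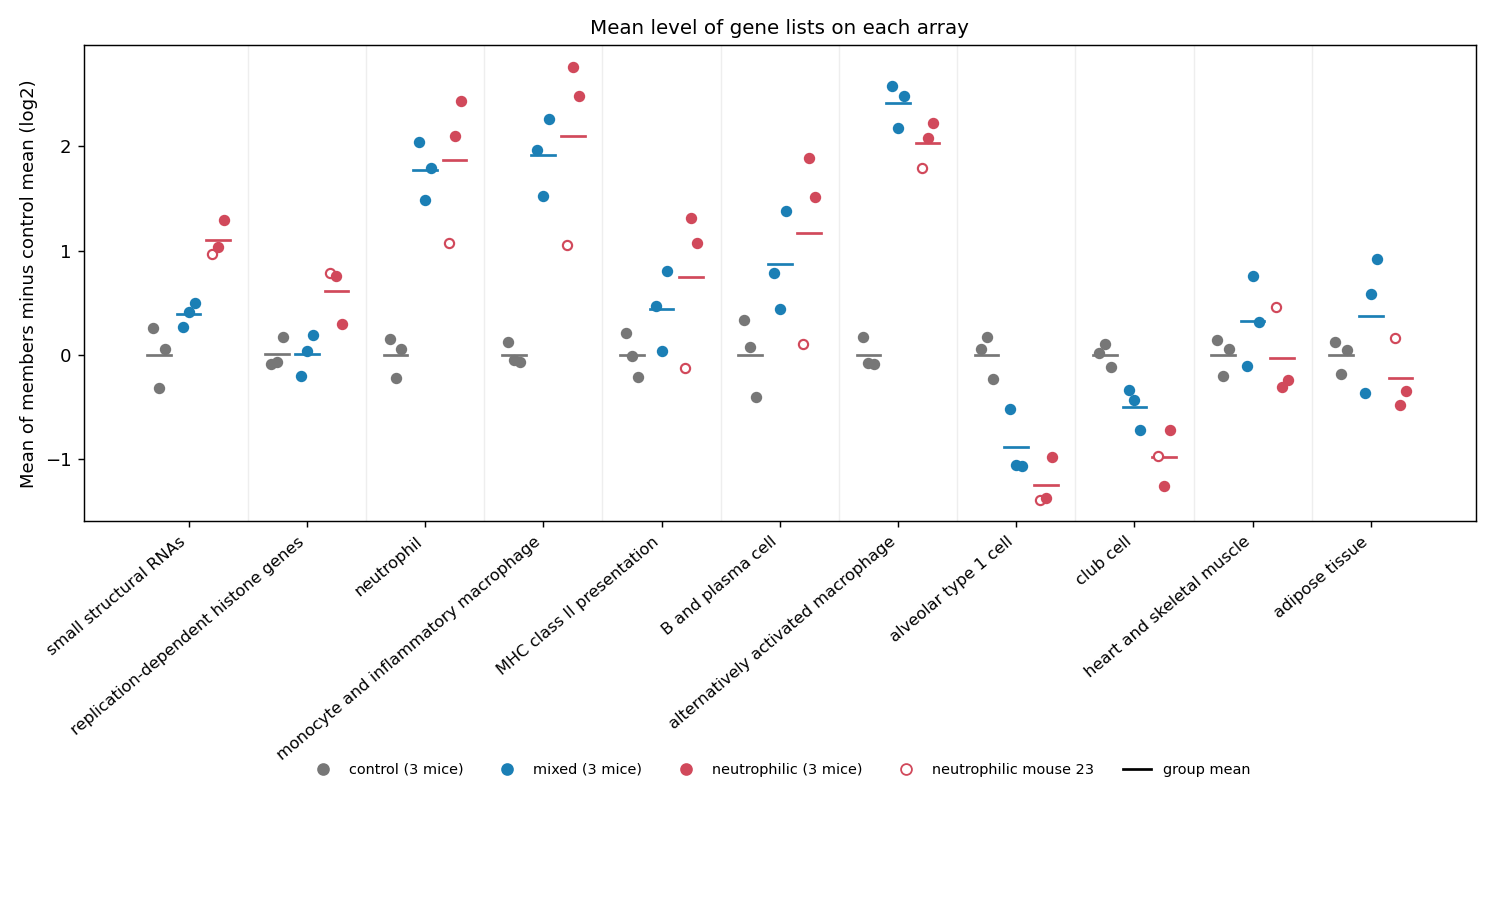
Mean log2 level of the members of 11 gene lists minus their control mean (vertical axis), 1 point per mouse, with bars at group means over 3 mice and mouse 23 as an open circle. For the small structural RNAs and the histone genes mouse 23 lies with mice 24 and 25, whereas for the neutrophil, monocyte, MHC class II and B cell lists it lies lowest of the 6 dosed mice.

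**Figure D4:**
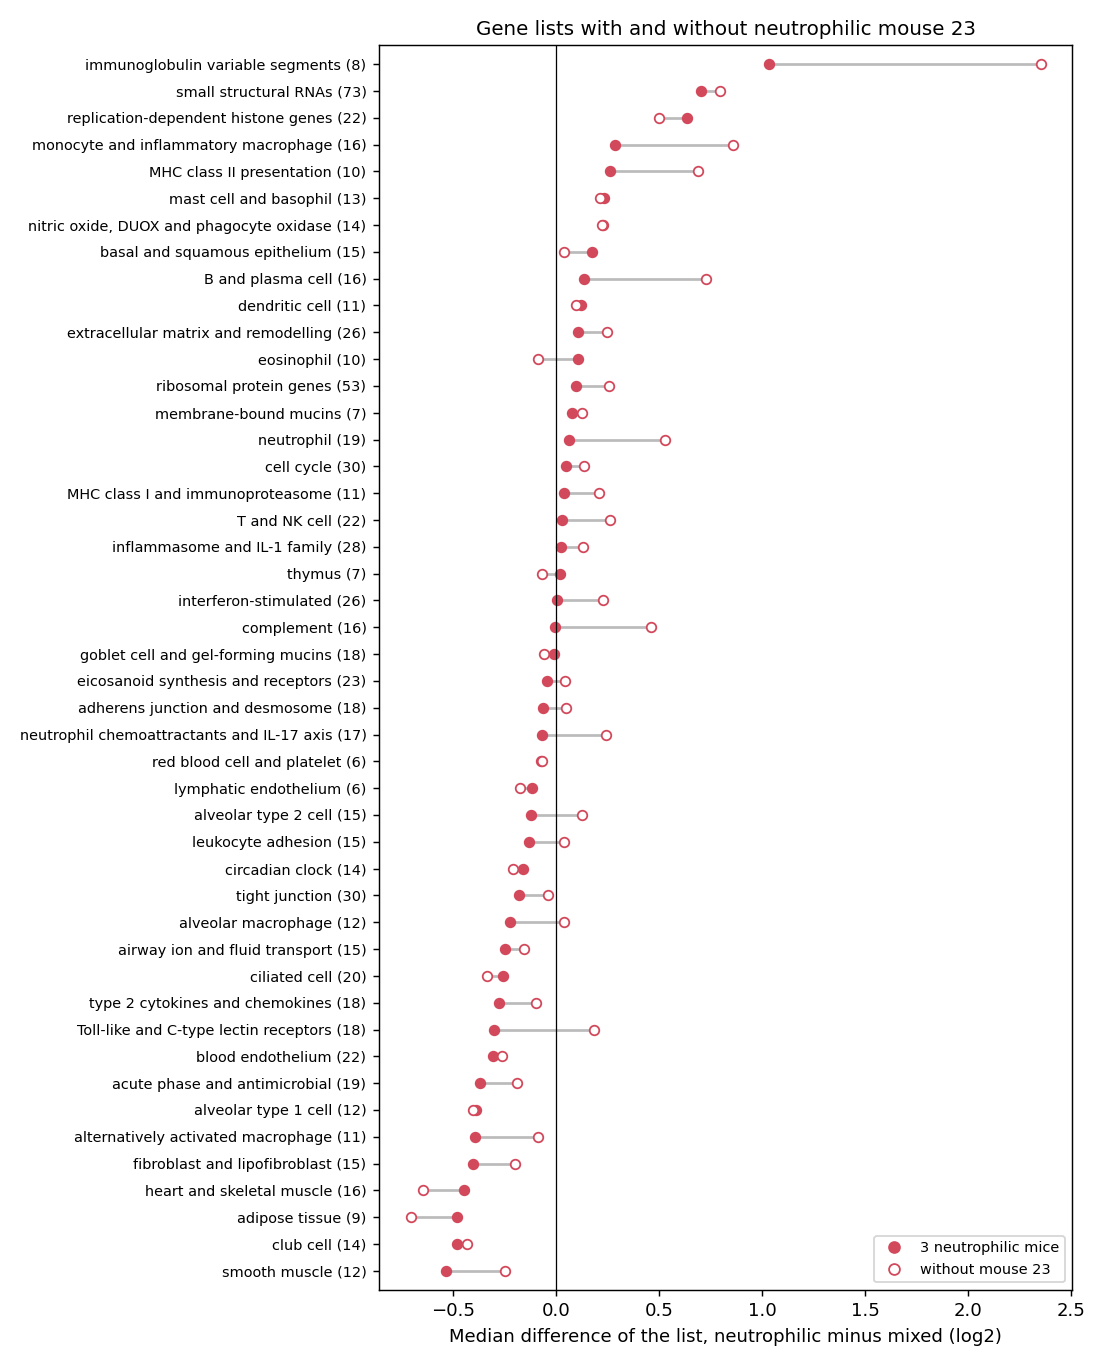
Median log2 difference, neutrophilic minus mixed (horizontal axis), of each gene list with all 3 neutrophilic mice (filled) and without mouse 23 (open), with the number of genes measured in brackets. Immunoglobulin variable segments (1.03 against 2.35) and the B and plasma cell list (0.13 against 0.73) move the most to the right when mouse 23 is left out.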

How the data were processed

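Total RNA of snap-frozen whole lung was labelled from 300 ng per the labels' protocols. The deposited log2 intensities are RMA values that, per the submitters' processing notes, the authors obtained from Affymetrix Expression Console. No version was given in the sources used here. The log2 scale was taken from the range of the values. Of 34760 probe sets, 21640 had 1 gene symbol in the platform annotation, 1321 had several and 11799 were not listed with a gene. A gene was represented by its brightest probe set, averaged over 12 arrays (19937 genes, 954 with more than 1 probe set). RMA output was used without further normalization, and array SDs differed.

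A model with a mean per group was fitted to the 9 arrays of the 3 intranasal groups with limma 3.58.1 in R 4.3.3 (lmFit, eBayes without trend, 6 residual degrees of freedom, 5 without mouse 23), two-sided, with Benjamini-Hochberg adjustment over all genes and a threshold of 0.05. The members, the lists and this choice of arrays were made with earlier results of these data known, among them that the eosinophilic arrays widen the spread and that a fit of all 12 arrays calls 0 genes. No other covariate was used, and the labels give no batch. The labels do not say whether mice of a group shared a cage or day, so p values measure the spread between these mice. On simulated data with the spread of these arrays, the 9-array fit called 86% of genes changed by 2 log2 units. Whether that share holds for the measured arrays was not tested, so it is not a measure of what the fit missed. In the measured data the widest difference called in the 9-array fit was 1.89 log2 units (n-R5s136). Zfand1 and Cdc5l differed by 3.56 and -2.17 in that fit and were not called (limma, adjusted p 0.108 and 0.0700).

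Genes could be named if they were among the 12 largest differences in each direction among genes called without overlap, in each fit. Places were filled up with uncalled genes where fewer were called, without predicted or small nucleolar names. Up to 4 members per list by smallest p could also be named. So could any member of the neutrophil, eosinophil, alternatively activated macrophage and study topic lists. Not every gene that met this rule is named. Those left out include Frmd6, Chordc1, Kcnrg and Zfp971, which were called without mouse 23. 2610002M06Rik, Snora3, Srsf10, Dnajb9, Calcrl, Clec1a, Npr3, Cxcl9, Cxcl10, Cxcl11, Calhm6, Mzb1, Nppa, Saa3 and the lung markers fall outside this rule and were named after their values were seen, as were the lists of small structural RNAs, histone genes, immunoglobulin variable segments and ribosomal protein genes (53 genes, 0 called in either fit, median 0.10, and 0.26 without mouse 23). Promoters came from RefSeq. Of the 11 genes called with mouse 23, 1 is not reported here.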

Additional observations from a re-analysis of the deposited data

How the results depend on the processing

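The count of 11 genes moved with most alternatives. It was 0 with all 12 arrays, with the eosinophilic arrays other than that of mouse 7 added, with only the mixed and neutrophilic arrays, with each array centred on its median, with trend and robust settings, and over all probe sets. It was 5 after quantile normalization, 256 with array SD as a covariate (74 higher, 182 lower) and 590 with array weights (114 higher, 476 lower). Leaving out 1 array at a time gave 0 to 53. Without mouse 23, where the alternatives were chosen after seeing the data, the count of 53 became 0 with all 12 arrays, 0 with the eosinophilic arrays other than that of mouse 7 added, 2 with only the mixed and neutrophilic arrays, 231 with the SD covariate, 34 with trend and robust settings, 449 with array weights and 0 over all probe sets. Leaving out another array gave 0 to 173, with 0 without mouse 24, 6 without mouse 25 and 173 without mixed mouse 15. No paired analysis was possible because the groups share no mouse numbers. Of the genes named in the report, none that passed in either fit changed direction in these alternatives; the cause of the changes in count was not tested.

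Differences that turned sign all belonged to genes that passed in neither fit. After quantile normalization these were Ly6g (0.019), Cxcl5 (0.070), Muc5ac (0.19) and Il1b (0.11). With each array scaled to 1 SD they were Cxcl5 (0.073), Retnla (0.12), Ccl11 (0.014), Ccl17 (0.075), Clca1 (0.17), Muc5ac (0.14), Muc5b (0.14), Il1b (0.23) and Saa3 (0.18). With the SD covariate they were Ly6g (0.50), Cxcl5 (0.020) and Il1b (0.24), and with array weights Ly6g (0.35), Cxcl5 (0.24) and Il1b (0.31). Leaving out 1 array at a time, the ranges that crossed 0 were -0.62 to 0.77 for Ly6g, -1.67 to 0.15 for Cxcl2, -0.38 to 0.30 for Cxcl5, -0.50 to 0.37 for Il1b, -0.68 to 1.87 for Cxcl9, -0.12 to 1.48 for Cxcl10, -0.25 to 1.08 for Il1r2, -0.018 to 0.26 for Arg1, -0.039 to 0.14 for Casp1, -0.12 to 0.022 for Muc5ac, -0.46 to 0.030 for Muc5b, -0.022 to 1.03 for Cldn4 and -0.020 to 1.15 for Nlrp3.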
